A study of Mus musculus with 56 samples.

Results

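The 8 genes described here make and load the MHC class I complex: the heavy chains *H2-K1* and *H2-D1*, the light chain *B2m*, the peptide transporter subunits *Tap1* and *Tap2*, tapasin (*Tapbp*), the trimming peptidase *Erap1* and the transactivator *Nlrc5*. They were chosen by symbol, and each matched 1 row of the deposited table of 55359 genes by its Ensembl identifier. All 8 passed the filter on low counts, with 19659 genes tested in all.

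RNA was measured in OVA:Kb-tetramer-binding CD8 T cells, the fetus- and graft-specific cells (TFGS) of adult female C57BL/6 mice, sorted from pooled spleen and lymph nodes with 200 cells per library. Naive mice had no treatment. Sensitized mice had rejected a skin graft from 2W-OVA.BALB/c donors, which carry the 2W-OVA transgene, at least a month earlier. Post-partum mice, first naive (N+P) or first sensitized (S+P), had carried pups sired by 2W-OVA.BALB/c males and were taken within days of delivery. N+P cells were sorted as C1 (PD1-) and C5 (PD1+ CD73+), and S+P cells as C4 (PD1-), C5 (PD1+ CD73+) and C7 (PD1+ CD73-). Technical libraries were summed, which left 30 samples of 15547934 to 54809406 counts. There were 3 Naive and 4 Sensitized samples, N+P mice gave 3 of C1 and 3 of C5, and the S+P mice gave 6 of C4, 6 of C5 and 5 of C7.

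Nearly every nucleated cell shows peptides from its own proteins on class I molecules, which are read by CD8 T cells. The proteasome cuts the protein, the transporter made of TAP1 and TAP2 carries the peptides into the endoplasmic reticulum, ERAP1 trims them, and tapasin holds an empty heavy chain with beta-2-microglobulin at the transporter until a peptide binds. NLRC5 drives the genes of this pathway, and interferon signalling raises them. The product of *H2-K1* in these mice is the Kb molecule, the restricting element of the tetramer used in the sort. T cells carry class I molecules themselves, and the values below are those of the sorted T cells, not of the cells that showed them antigen.

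*H2-K1* (ENSMUSG00000061232) lies on chromosome 17 from 34214987 to 34219321 (GRCm39, minus strand). *H2-D1* (ENSMUSG00000073411) is on the same chromosome from 35481691 to 35486475, *Tap1* (ENSMUSG00000037321) from 34405996 to 34416199, *Tap2* (ENSMUSG00000024339) from 34422501 to 34435829 and *Tapbp* (ENSMUSG00000024308) from 34134873 to 34148267, all on the plus strand. *B2m* (ENSMUSG00000060802) is on chromosome 2 from 121977957 to 121983594, *Nlrc5* (ENSMUSG00000074151) on chromosome 8 from 95160984 to 95253900 and *Erap1* (ENSMUSG00000021583) on chromosome 13 from 74787687 to 74841320, all on the plus strand.

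Promoter windows of 300 bases (250 before the start and 50 from it on) were in the RefSeq table, on GRCm38.p6, for 6 of the 8 genes, namely *H2-K1*, *H2-D1*, *B2m*, *Tap1*, *Tapbp* and *Erap1*. The stretches below are shown because the heavy chain and light chain genes hold TGACG and ATTGG at the same spacing, which was read from these windows themselves. Capitals mark, from left to right, the kappa-B type motif GGGATTCCC (not in the *B2m* stretch), the IRF type motif (GAAANNGAA or GAANNGAAA on either strand), the X2 type motif TGACG and the Y type motif ATTGG. X2 and Y type motifs are among the parts of the class I promoter through which NLRC5 is known to be recruited, and its remaining parts were not searched. The other 2 types are known to bind NF-kappa-B and interferon regulatory factors. The *H2-K1* stretch is chr17:34000351-34000469 (minus strand), the *H2-D1* stretch chr17:35262912-35263030 (plus strand) and the *B2m* stretch chr2:122147536-122147646 (plus strand).
H2-K1: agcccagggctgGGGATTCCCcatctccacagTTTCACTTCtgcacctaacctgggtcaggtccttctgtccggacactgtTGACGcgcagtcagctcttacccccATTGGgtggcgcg
H2-D1: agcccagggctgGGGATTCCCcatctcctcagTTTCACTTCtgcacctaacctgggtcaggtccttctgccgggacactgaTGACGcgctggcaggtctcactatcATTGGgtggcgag
B2m: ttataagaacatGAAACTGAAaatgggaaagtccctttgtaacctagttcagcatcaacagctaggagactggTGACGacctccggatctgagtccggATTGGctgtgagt

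In all 3 stretches 20 bases separated TGACG from ATTGG on the plus sense of the gene. That spacing, taken from these windows and searched on both strands, was found in 26 of 27025 promoter windows (0.0962%) and in 3 of the 6 windows of these genes. The 3 of 6 follows from how the spacing was chosen and is no test. The kappa-B type motif was in the *H2-K1* and *H2-D1* windows and in 0.37% of all windows. The IRF type motif was in 4 of the 6 windows (*H2-K1*, *H2-D1*, *B2m* and *Erap1*) against 14.9% of all windows, and in *Erap1* it began 9 and 3 bases before the start. TGACG alone was in 4 of 6 windows against 21% and ATTGG alone in 5 of 6 against 37.9%. Each spaced match holds a TGACG and an ATTGG, so these counts are not independent of it. Over the 115 bases from 60 before the kappa-B type motif to 55 after its first base, the *H2-K1* and *H2-D1* windows were identical at 111 positions (96.5%). That part ends before TGACG. Beyond it the printed stretches differ more, as in the bases between TGACG and ATTGG. The GAS type motif TTCNNNGAA, a known interferon-responsive type, was in 0 of the 6 windows and in 8.47% of all. A match describes letters in the window only.

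Several libraries stood apart, and this bears on every result below. Cells of S+P mice 2 and 3 (5 samples: C4 2, C4 3, C5 2, C5 3 and C7 3) came from 1 library each, and C4 2, C4 3 and C7 3 had the fewest genes with a count, 8002, 7436 and 7879, against 12383 to 26805 in the other 25 samples. One library was deposited with the same counts under Naive 1 and S+P C4 1 and was left out of both. A library of S+P C7 1 and a library of S+P C7 2 had almost the same counts (Pearson's r 0.997 over genes, where genes do not count as replicates) and were averaged, giving the sample named S+P C7 1/2. That sample therefore holds a library labelled mouse 2, and it is kept among the 25 samples and in every value given without S+P mice 2 and 3. The 8 CD8 T cell markers (*Cd3d*, *Cd3e*, *Cd3g*, *Cd8a*, *Cd8b1*, *Trac*, *Trbc1* and *Trbc2*) were detected in all 30 samples, with a summed level of 6669 to 16093 CPM, counts normalized for library size. The markers gated out in the sort included CD11c, F4/80, NK1.1 and TER119. In S+P C7 3 the 4 globin genes summed to 19857 CPM against at most 418 in the other 29 samples, and the 4 genes of class II and its invariant chain to 11071 against at most 44.4. In that sample *Ighm* was at 8232 CPM against at most 1334 elsewhere and *Igkc* at 7033 against at most 897, while the B cell genes *Ms4a1*, *Cd79a* and *Cd79b* were at 0. Its 3 NK cell genes summed to 469 CPM against at most 126, and its 6 myeloid genes to 57.4, within the 0 to 399 of the other samples. *Cd4* was at 0 there, and *Cd4* and *Foxp3* together stayed at or under 4.45 CPM in all 30 samples. The part of RNA from other cells in the class I counts of S+P C7 3 was not tested. In bulk samples such as these, fewer cells of a type and less RNA per cell cannot be told apart.

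The heavy chains and *B2m* were among the most abundant messages of TFGS. Per kilobase of exon, the median over the 30 samples was 2428 CPM for *B2m*, 1483 for *H2-K1* and 1230 for *H2-D1*, which ranked 11, 16 and 21 among the 19659 genes. Together the 3 genes took 0.919% to 2.32% of all counts after normalization. The machinery was expressed at far lower levels per kilobase, with medians of 57.9 CPM for *Tapbp*, 41.5 for *Tap1*, 37.3 for *Nlrc5*, 14.1 for *Tap2* and 10.3 for *Erap1*. The lowest count of any of the 8 genes in a sample was 85, and the counts were made without molecular identifiers, so reads are not independent molecules.

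**Figure D1:**
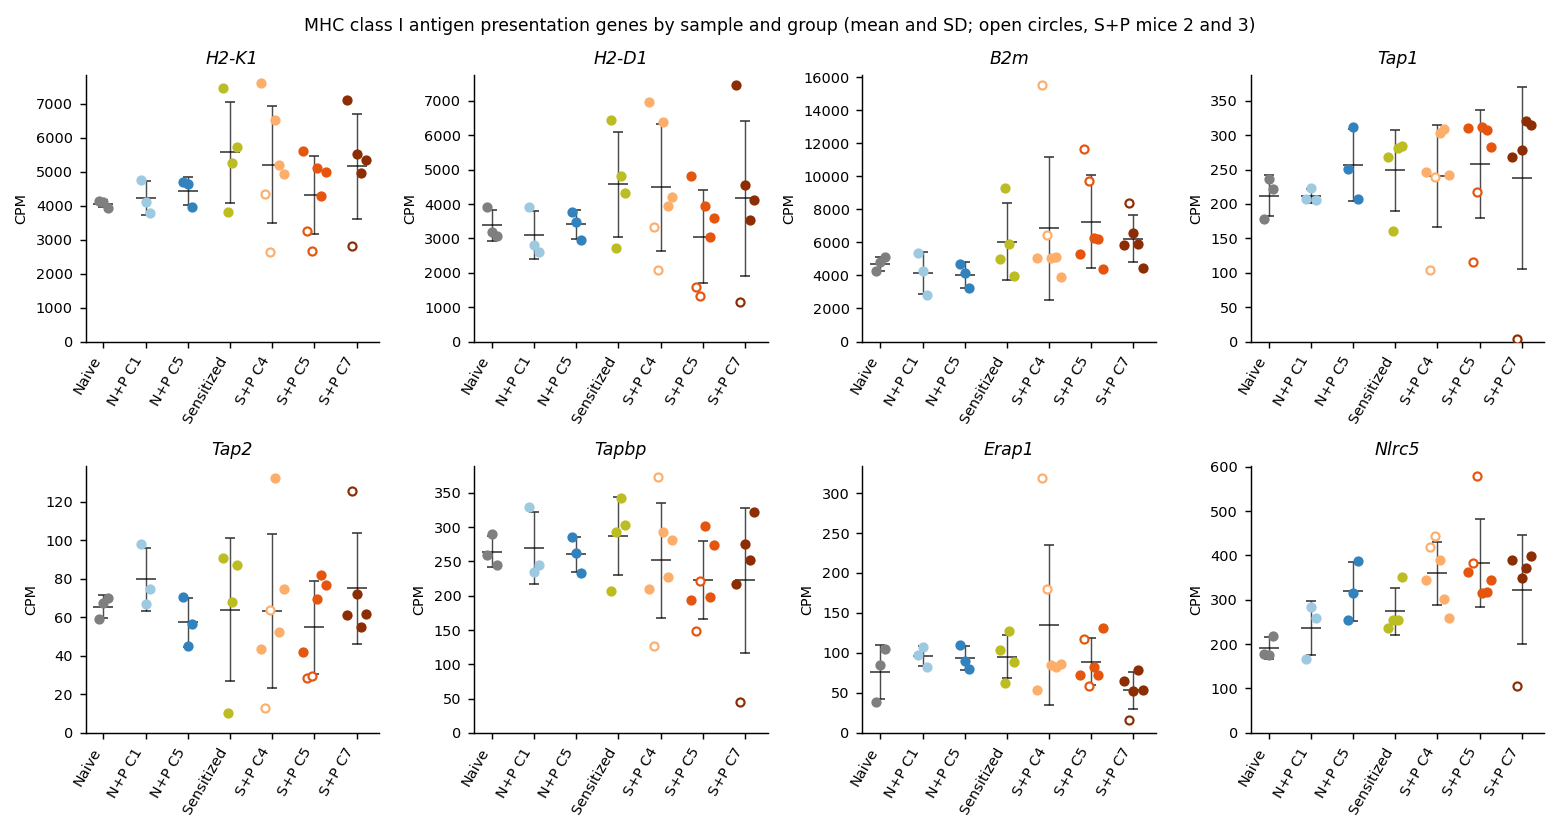
Level of each gene in CPM (y axis, linear, from 0) in every sample of the 7 groups (x axis), with the mean and SD in black. Open circles are S+P mice 2 and 3, which held the lowest *H2-D1* values of the 3 S+P subsets, C4, C5 and C7 in turn (2066, 1336 and 1158 CPM) and the highest *B2m* values in those groups (15527, 11691 and 8399 CPM).

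Among the heavy chains, *H2-K1* ran at 4124, 4106 and 3928 CPM in Naive, at 4759, 4115 and 3779 in N+P C1 and at 4686, 4643 and 3946 in N+P C5. In the grafted mice it spread wider, with 7461, 3823, 5258 and 5712 CPM in Sensitized and 7120, 2810, 5524, 4970 and 5340 among S+P C7 samples. The S+P C4 samples lay between 2637 and 7609 (median 5059) and the S+P C5 samples between 2670 and 5610 (median 4635). Naive samples were the tightest group and overlapped all others. The group means ran from 5564 ± 1499 (SD, n = 4) in Sensitized through S+P C4, S+P C7, N+P C5, S+P C5 and N+P C1 to 4053 ± 108 (SD, n = 3) in Naive, and each group overlapped the next.

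*H2-D1*, which encodes the Db molecule, followed the same outline at a lower level. It was at 3905, 3183 and 3070 CPM in Naive, at 3906, 2798 and 2602 in N+P C1 and at 3780, 3490 and 2942 in N+P C5. Sensitized samples held 6443, 2724, 4805 and 4312 CPM, and S+P C7 samples 7452, 1158, 4542, 3527 and 4124. The S+P C4 values ran from 2066 to 6955 (median 4077) and those of S+P C5 from 1336 to 4817 (median 3311). The means ran from 4571 ± 1532 (SD, n = 4) in Sensitized, through S+P C4, S+P C7, N+P C5, Naive and N+P C1, to 3053 ± 1364 (SD, n = 6) in S+P C5, with every neighbour in that order overlapping. Both heavy chains have close paralogs and reads that mapped to several places had been removed, so the split of reads between class I genes is uncertain.

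Across the 30 samples *H2-K1* and *H2-D1* rose and fell together. Pearson's r of their log2(CPM + 1) levels was 0.95 over 30 samples and 0.95 over the 25 samples without S+P mice 2 and 3, and each was the gene most like the other among those tested. Next to *H2-K1* came *H2-T23* (r = 0.90), which encodes the non-classical class I molecule Qa-1, and *Bin2* (0.88). Next to *H2-D1* came *Bin2* (0.91) and *Anxa6* (0.89). Over the 25 samples these r were 0.87 and 0.77 for *H2-K1* and 0.85 and 0.81 for *H2-D1*. These are descriptions over samples that share their library, depth and mouse, and the close paralogs may share reads. The ratio of *H2-D1* to *H2-K1* in CPM lay between 0.680 and 1.05 in 27 samples. It was 0.412 in S+P C7 3 and 0.488 in S+P C5 2, and S+P C5 3 was also below that range.

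*B2m*, the light chain shared by class I molecules, did not track the heavy chains. It was at 4258, 4799 and 5102 CPM in Naive, at 5336, 4292 and 2810 in N+P C1 and at 4726, 4135 and 3213 in N+P C5. Sensitized samples held 4993, 9306, 5926 and 3961 CPM and S+P C7 samples 5855, 8399, 6601, 5882 and 4429. Values between 3934 and 15527 (median 5097) were found in S+P C4, and S+P C5 ran from 4383 to 11691 (median 6250). The order of the means, from 7264 ± 2819 (SD, n = 6) in S+P C5 through S+P C4, S+P C7, Sensitized, Naive and N+P C1 to 4025 ± 763 (SD, n = 3) in N+P C5, put the grafted groups first, and neighbours overlapped throughout.

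Over the 30 samples the correlation of *B2m* was -0.32 with *H2-K1* and -0.39 with *H2-D1*, and over the 25 samples without S+P mice 2 and 3 it was 0.18 and 0.19. Genes most like *B2m* were *Cd52* (r = 0.91), which encodes a small glycoprotein of the lymphocyte surface, *Cox6c* (0.87), a subunit of cytochrome c oxidase, and *Dad1* (0.86), a subunit of the oligosaccharyltransferase. Over the 25 samples these r were 0.81, 0.83 and 0.67. The ratio of *B2m* to the sum of the 2 heavy chains, per kilobase, was 0.511 to 1.26 in 24 samples. It was 2.09 in Sensitized 2 and 2.01 to 3.59 in the 5 samples of S+P mice 2 and 3. Fewer genes with a count went along with the high ratio in S+P C4 2, C4 3 and C7 3. S+P C5 2 and C5 3, with the highest ratios (3.57 and 3.59), had 12416 and 12652 such genes. S+P C4 1 had 12383 with a ratio of 0.511, and Sensitized 2 had 16699. The part of library quality in the ratio was not tested.

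**Figure D2:**
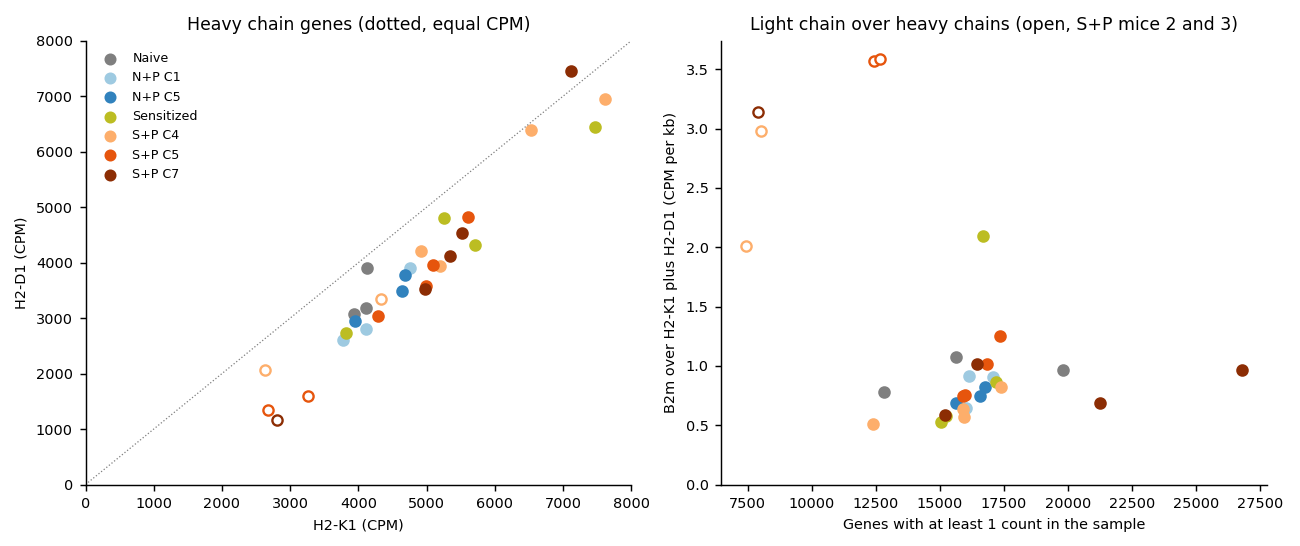
Left, *H2-D1* against *H2-K1* in CPM, 1 point per sample, coloured by group, with a dotted line at equal CPM. Right, *B2m* over the sum of *H2-K1* and *H2-D1* in CPM per kilobase against the number of genes with a count, where the open circles (S+P mice 2 and 3) lie at 2.01 to 3.59 and 1 Sensitized sample at 2.09, above the 0.511 to 1.26 of the other 24 samples.

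*Tap1*, a subunit of the transporter, had close group means. It was at 179, 237 and 221 CPM in Naive, at 207, 223 and 205 in N+P C1 and at 251, 312 and 207 in N+P C5. Sensitized samples held 268, 161, 281 and 285 CPM and S+P C7 samples 268, 3.97, 279, 321 and 314. Its range was 104 to 309 (median 245) in S+P C4, and S+P C5 ran from 115 to 312 (median 295). The group means lay between 212 CPM (N+P C1) and 258 CPM (S+P C5), and apart from S+P mice 2 and 3 the 25 samples differed by at most 1.99-fold. *Psmb9*, the immunoproteasome subunit gene that overlaps *Tap1* by 743 exonic bases on the opposite strand, stood at 176 CPM in S+P C7 3, where *Tap1* was at 3.97.

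*Tap2*, the partner subunit, was lower and more variable. It was at 58.9, 67.6 and 70.0 CPM in Naive, at 97.8, 66.7 and 74.4 in N+P C1 and at 70.6, 45.1 and 56.3 in N+P C5. Sensitized samples held 90.9, 10.2, 67.8 and 87.1 CPM and S+P C7 samples 61.1, 126, 72.0, 54.8 and 61.6. Across S+P C4 it ran from 12.8 to 132 (median 58.3) and across S+P C5 from 28.2 to 82.1 (median 55.7). Every group mean lay between 54.7 CPM (S+P C5) and 79.7 CPM (N+P C1), with overlap between all neighbours. Although the 2 subunits form 1 transporter, the correlation of *Tap1* and *Tap2* was -0.02 over 30 samples and 0.38 over 25. *Tap2* shares 698 exonic bases with antisense long non-coding RNAs, and the strand setting of the counting is not given in the sources used here.

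*Tapbp*, the loading chaperone, had the smallest spread of the 8 genes outside S+P mice 2 and 3. It was at 259, 289.8 and 245 CPM in Naive, at 329, 234 and 245 in N+P C1 and at 285, 263 and 233 in N+P C5. Sensitized samples held 207, 294, 342 and 303 CPM and S+P C7 samples 217, 45.5, 276, 252 and 322. S+P C4 ranged from 127 to 373 (median 254) and S+P C5 from 148 to 302 (median 209.5). The highest of those 25 samples was 1.76-fold above the lowest, and the group means spanned 222 CPM (S+P C7) to 287 CPM (Sensitized). Of its exonic bases 46.6% overlap *Zbtb22* or an antisense RNA, and how such reads were counted is not given in the sources used here.

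*Erap1*, which trims peptides to class I length, had its lowest mean in S+P C7. It was at 38.6, 85.2 and 105 CPM in Naive, at 97.3, 108 and 82.4 in N+P C1 and at 109.8, 90.1 and 80.1 in N+P C5. Sensitized samples held 103, 62.9, 127 and 88.5 CPM, and S+P C7 samples 65.1, 15.9, 52.4, 79.0 and 53.0. The range in S+P C4 was 53.8 to 319 (median 85.8) and S+P C5 ran from 58.0 to 132 (median 77.4). The S+P C7 mean of 53.1 ± 23.4 CPM (SD, n = 5) stood against a Sensitized mean of 95.4 ± 26.9 (SD, n = 4), while S+P C5 averaged 89.0 ± 29.1 (SD, n = 6). The fitted log2 fold change was -0.85 (standard error 0.51, unadjusted p 0.107) against Sensitized and -0.75 (standard error 0.47, unadjusted p 0.121) against S+P C5 in edgeR's quasi-likelihood test. Without S+P C7 3, in which *Erap1* was lowest, these were -0.62 and -0.52. Exact permutation tests gave p 0.0476 and 0.039 (two-sided), and 0.914 for both after Benjamini-Hochberg adjustment over the 80 pairs of gene and comparison.

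*Nlrc5*, the transactivator of the pathway, had its lowest mean in Naive. It was at 178, 174 and 219 CPM there, at 167, 283 and 259 in N+P C1 and at 254, 316 and 388 in N+P C5. Sensitized samples held 236, 253, 255 and 352 CPM, and S+P C7 samples 390.1, 106, 348, 372 and 399. S+P C4 ranged from 259 to 443 (median 367) and S+P C5 from 315 to 579 (median 354). All Naive samples lay below all N+P C5 and all Sensitized samples, for which the share of all genes is given below. Naive samples overlapped N+P C1. Naive was not compared with the S+P subsets. The means rose from 191 ± 24.9 (SD, n = 3) in Naive through N+P C1, Sensitized, N+P C5, S+P C7 and S+P C4 to 384 ± 99.0 (SD, n = 6) in S+P C5, and neighbours in this order overlapped.

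The *Nlrc5* difference did not pass the test in any comparison. For N+P C5 against Naive the log2 fold change was 0.74 (standard error 0.39, 95% interval -0.05 to 1.54, unadjusted p 0.0652, adjusted p 0.763 by edgeR with Benjamini-Hochberg over all genes tested). Sensitized against Naive gave 0.52 (standard error 0.37, interval -0.22 to 1.27). Without S+P mice 2 and 3 the N+P C5 value was 0.77 with adjusted p 0.136, the lowest among all alternatives for these 8 genes. With 3 samples against 3 the exact permutation test cannot go below 0.1, which is the p it gave. For S+P C5 against Sensitized, where the groups overlapped, the log2 fold change was 0.49 (standard error 0.31, adjusted p 0.64 by edgeR), and the exact permutation test gave p 0.0381 (two-sided) and 0.914 after adjustment over the 80 pairs. *Nlrc5* was the single gene of the 8 whose samples did not overlap between 2 compared groups, in Sensitized against Naive (7.59% of all genes tested did not overlap there) and in N+P C5 against Naive (12.9%), so 1 of 8 is near the share of all genes. In the other comparisons 0 of 8 did not overlap. The share of all genes was 7.3% for N+P C1 against Naive and 10.8% for N+P C5 against N+P C1. Against Sensitized it was 0.799% for S+P C4, 2.88% for S+P C5 and 2.15% for the C7 subset. It was 0.687% for S+P C5 against S+P C4, 0.397% for S+P C7 against S+P C5, and 2.67% for S+P C5 against N+P C5.

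The machinery genes had no shared set of most alike genes. Over 30 samples the genes most like *Tap1* were *Ep400* (r = 0.95), *Rab7* (0.95) and *Tprg1l* (0.94), but over the 25 samples without S+P mice 2 and 3 these were 0.11, 0.31 and 0.20. For *Tapbp* they were *Dnttip2*, *Ebna1bp2* and *Rnf114* (0.91, 0.90 and 0.90, against 0.40, 0.30 and 0.16 without those mice). The r of *Tap1* with *Tapbp* went from 0.86 to -0.08, while that of *Tap1* with *Nlrc5* was 0.54 over 30 and 0.61 over 25 samples. Among the 3 genes most like *Tap2* were *Wipi2* (0.87) and *Bpgm* (0.80). *Nlrc5* was most like *Plaat3* (0.81), *Ufsp2* (0.76) and *Ppp6r3* (0.76), and *Erap1* was most like *Slf1* (0.85), *Eif4ebp2* (0.83) and *Tasor* (0.83). Over the 25 samples these were 0.79 and 0.73 for *Tap2*, 0.69, 0.63 and 0.52 for *Nlrc5*, and 0.60, 0.60 and 0.62 for *Erap1*. The high r of *Tap1* and *Tapbp* with their most alike genes thus rested on S+P mice 2 and 3. Those of *Tap2*, *Nlrc5* and *Erap1* were also lower without these mice.

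Which presentation genes differ by sensitization, pregnancy or subset was asked in 10 comparisons of 2 groups and an interaction. None of the 8 genes passed the threshold (adjusted p under 0.1 and absolute log2 fold change above 0.9, edgeR's quasi-likelihood test) in any. Over all genes tested the share called was 0.153% for Sensitized against Naive, 0% for N+P C1 against Naive, 0.0407% for N+P C5 against Naive and 0.00509% for N+P C5 against N+P C1. Against Sensitized it was 0.00509% for S+P C4, 0.0712% for S+P C5 and 0.0305% for the C7 subset. It was 0.0305% for S+P C5 against S+P C4, 0% for S+P C7 against S+P C5, 0% for S+P C5 against N+P C5 and 0.0254% for the interaction, the difference between S+P C5 against Sensitized and N+P C5 against Naive. So few genes passed in any comparison that 0 of 8 is near the share of all genes. At an unadjusted p under 0.05 edgeR counted 1 of the 88 pairs of gene and comparison, and DESeq2 counted 2 and called 0. Of all 19659 genes edgeR gave such a p to 638 (N+P C1 against Naive) up to 2621 (S+P C5 against S+P C4) in a comparison. The share of all genes was not counted for DESeq2. Comparisons that name the same group share its samples and are not independent of each other.

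The one pair with an unadjusted p under 0.05 was *B2m* in S+P C5 against N+P C5, the shared subset of sensitized and naive post-partum mice. The N+P C5 samples were at 4726, 4135 and 3213 CPM and the S+P C5 samples at 4383 to 11691, so the groups overlapped. The log2 fold change was 0.85 (standard error 0.34, 95% interval 0.15 to 1.55, unadjusted p 0.0184, adjusted p 0.816 by edgeR with Benjamini-Hochberg), where 5.9% of all genes had an unadjusted p under 0.05. The exact permutation test gave p 0.0476 (two-sided, 3 against 6 samples) and 0.914 after adjustment over the 80 pairs. The 2 highest S+P C5 values, 11691 and 9705 CPM, were those of mice 2 and 3, and without S+P mice 2 and 3 the log2 fold change was 0.45 (unadjusted p 0.0639).

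How small a change these data allow differed by gene. The 95% interval of the log2 fold change lay within 2-fold in both directions in 9 of 10 comparisons for *H2-K1*, 7 for *B2m*, 7 for *Tapbp*, 4 for *H2-D1* and 4 for *Nlrc5*. It did so in 0 of 10 for *Tap1*, *Tap2* and *Erap1*, whose intervals reached from -1.95 to 1.76 at the widest (both in *Tap2*). For these 3 genes the interval held a 2-fold difference in every comparison. Technical libraries of the same mouse and subset bear on this. Over 22 such pairs the median absolute log2 difference was 0.18 for *H2-K1*, 0.19 for *H2-D1* and 0.16 for *B2m* but 0.50 for *Tap1*, 0.54 for *Nlrc5* and 0.76 for *Erap1*. For the last 3 genes that is more than the 0.32, 0.28 and 0.58 between samples of a group, most of which are sums of 2 libraries.

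**Figure D3:**
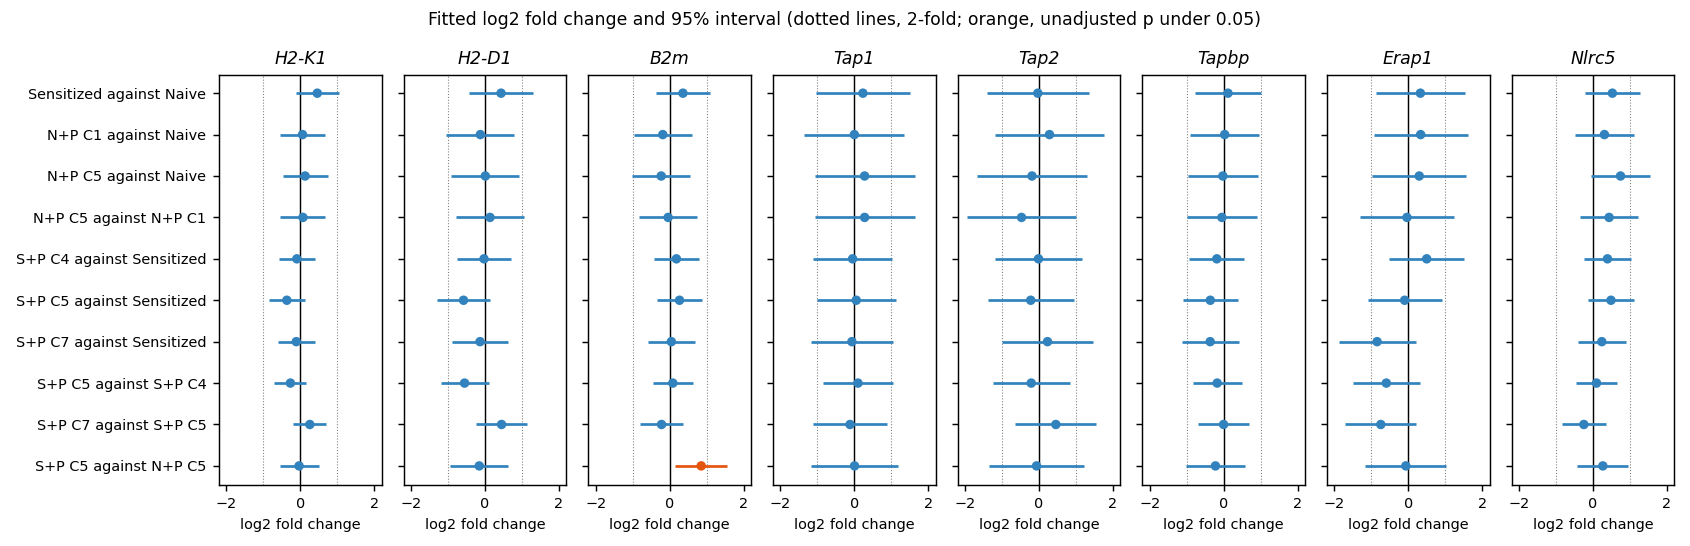
Fitted log2 fold change (points) with its 95% interval (bars) for each gene (panels) in the 10 comparisons of 2 groups (rows), with dotted lines at 2-fold. The interval of *B2m* in S+P C5 against N+P C5 (orange, 0.15 to 1.55) is the one that does not reach 0.

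For Sensitized against Naive the median log2 fold change of the 8 genes was 0.34 against 0.04 over all genes tested, with no test of the gap here or in the comparisons that follow. For S+P C5 against Sensitized it was -0.16 against -0.01, for S+P C7 against Sensitized -0.09 against 0 and for S+P C4 against Sensitized -0.02 against -0.14. For S+P C5 against S+P C4 it was -0.19 against 0.11, and for S+P C7 against S+P C5 -0.06 against 0.02. The N+P comparisons gave 0.04 (C1 against Naive), 0.07 (C5 against Naive) and 0.02 (C5 against C1), each beside 0 over all genes. S+P C5 against N+P C5 gave -0.05 and the interaction -0.30, with all genes at 0 and -0.06.

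*H2-D1* was lower in S+P C5 than in S+P C4 in each of 6 mice. Equal replicate numbers in the column names were read as 1 mouse. From mouse 1 to mouse 6 *H2-D1* stood at 6955, 3336, 2066, 6386, 3947 and 4206 CPM in S+P C4 and at 4817, 1590, 1336, 3956, 3039 and 3582 in S+P C5. The log2 difference within a mouse ran from -1.07 to -0.23 (median -0.58). Over all genes tested 0.88% were lower in all 6 mice, and of the 8 genes *H2-D1* was the one that was (3.6% of all genes and 0 of the 8 were higher in all 6). *H2-K1* was lower in 4 of the 6 mice (median log2 difference -0.32), and *B2m* was higher in 5 of the 6 (median 0.22).

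In the fit of all groups the *H2-D1* log2 fold change for S+P C5 against S+P C4 was -0.55 (standard error 0.32, unadjusted p 0.0923, adjusted p 0.502 by edgeR with Benjamini-Hochberg). With the replicate number as a block, so that subsets were compared within a mouse, it was -0.59 with a standard error of 0.11 (unadjusted p 3.85e-04, adjusted p 0.414), rank 11 of 11822 genes by p, and 0 genes were called in that fit. Without S+P mice 2 and 3 the value was -0.49 (unadjusted p 0.0476), and without the samples under 9000 genes it was -0.82 (unadjusted p 0.00603, adjusted p 0.321). The fit without samples under 9000 genes left out S+P C4 2 and C4 3. It kept S+P C5 2 and C5 3 of the same mice, the lowest *H2-D1* values of S+P C5, so its larger value is not like for like. From S+P C5 to S+P C7, which could be paired in 4 mice, *H2-D1* was higher in 3 and *H2-K1* in 4, with median log2 differences of 0.20 and 0.11 (3.72% of all genes were higher and 7.13% lower in all 4). Without S+P C7 3 the fitted log2 fold change of *H2-D1* for S+P C7 against S+P C5 was 0.68 (adjusted p 0.363) in place of 0.45 (adjusted p 0.859). With the replicate block, over those 4 mice, the *H2-D1* value was 0.09 (standard error 0.11, unadjusted p 0.442 by edgeR). These were the highest and lowest of 19 alternatives for *H2-D1* in that comparison. In N+P mice *Nlrc5* and *Tap1* were higher and *Tap2* lower in C5 than in C1 in all 3 mice, where 11.5% of genes were higher and 12.1% lower in all 3. The replicate block called 29 genes in that comparison, none of them among the 8, and gave *Nlrc5* a log2 fold change of 0.45 (unadjusted p 0.0276, adjusted p 0.51 by edgeR).

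**Figure D4:**
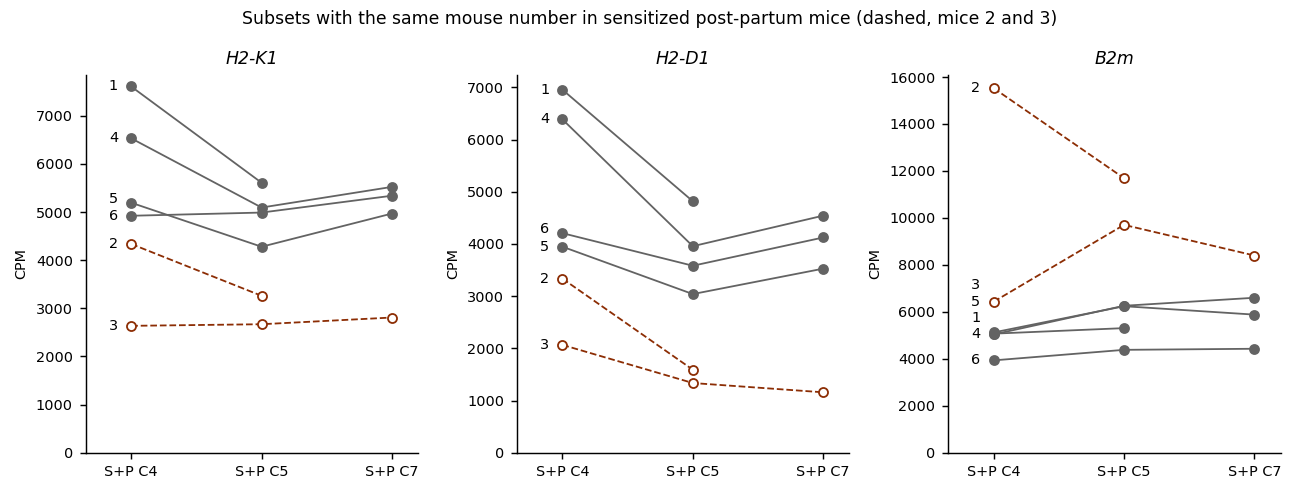
CPM of *H2-K1*, *H2-D1* and *B2m* (y axes from 0) in the S+P subsets, with a line joining samples of 1 mouse number, which is printed at the left, and dashed lines for mice 2 and 3. *H2-D1* falls from S+P C4 to S+P C5 along all 6 lines, and the averaged S+P C7 1/2 sample is not drawn.

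The other genes of the pathway were taken from 5 lists of 66 genes, of which 63 were tested. Of 19 further class I heavy chain genes 16 were tested, and 0 were called in any of the 11 comparisons. Per kilobase the most abundant were *H2-Q7*, with a median of 125 CPM, and *H2-T23* and *H2-T22* with 100.5 and 86.6, all far below *H2-K1* and *H2-D1*. At an unadjusted p under 0.05 this list held 6 differences up and 6 down, all from *Cd1d2*, *H2-M9* and *H2-Q10*. *H2-M9* was at 0 in 26 of 30 samples and *Cd1d2* in 18, with highest values of 21.1 CPM in Sensitized 2 and 12.9 CPM in S+P C4 1, so no fold is given. *H2-Q10*, known for a secreted class I molecule of the liver, was at 0.165, 5.24 and 13.1 CPM in Naive and at 101, 41.6, 68.0 and 86.7 in Sensitized, without overlap (log2 fold change 3.59, standard error 1.55, adjusted p 0.626 by edgeR). Of all genes tested 7.59% did not overlap in that comparison. Reads of the closely related H2-Q genes may be split between them.

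Among 7 genes of the immunoproteasome and its PA28 activator, all tested, 0 were called. *Psmb8*, *Psmb9* and *Psmb10*, the inducible catalytic subunits, had medians of 435, 241 and 171 CPM over the 30 samples. The one unadjusted p under 0.05 was *Pomp*, the proteasome maturation protein, in S+P C7 against S+P C5 (log2 fold change 0.75, adjusted p 0.332 by edgeR). Of 12 chaperones of peptide loading and folding, among them *Calr*, *Canx* and *Pdia3*, 0 were called and 0 had an unadjusted p under 0.05. Of 7 peptidases 0 were called, and *Lnpep*, a trimming peptidase of endosomes, had a log2 fold change of 0.58 for S+P C5 against Sensitized (unadjusted p 0.043, adjusted p 0.36 by edgeR).

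Of 21 regulators of class I transcription, all tested, 0 were called higher and 1, *Ifngr1*, was called lower, in 2 comparisons. *Ifngr1* encodes the ligand-binding chain of the interferon gamma receptor. The Sensitized samples were at 617, 457, 854 and 435 CPM, the S+P C4 samples at 276 to 948 (median 460) and the S+P C5 samples at 33.2 to 180 (median 53.2), so that S+P C5 lay below both groups without overlap. Of all genes tested 2.88% did not overlap between S+P C5 and Sensitized and 0.687% between S+P C5 and S+P C4. In S+P C7 it was at 475, 407, 269.6, 77.5 and 156 CPM, in Naive at 319, 374 and 268, in N+P C1 at 386, 218 and 205 and in N+P C5 at 289, 147 and 104. Against Sensitized the log2 fold change in S+P C5 was -2.85 (standard error 0.49, adjusted p 0.0118) and against S+P C4 it was -2.67 (standard error 0.46, adjusted p 0.0191, both by edgeR with Benjamini-Hochberg). The call against S+P C4 was lost with the replicate block (adjusted p 0.282, with *Ifngr1* lower in 6 of 6 mice), with no filter and with only these groups fitted. The call against Sensitized was lost with no filter on low counts (adjusted p 0.118).

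None of the other regulators was called. *Jak1*, a kinase of interferon receptors, had a log2 fold change of -0.57 for S+P C5 against S+P C4 (unadjusted p 0.0338, by edgeR), and *Jak1* and *Jak2* were at 0.74 and 1.68 for S+P C4 against Sensitized (adjusted p 0.316 for both). *Ciita*, the class II transactivator, was at 0 in 20 of 30 samples and highest, at 5.32 CPM, in S+P C7 3, the sample with class II messages. The regulators' median log2 fold change was 0.17 for S+P C5 against Sensitized and -0.37 for S+P C5 against S+P C4, beside -0.01 and 0.11 over all genes.

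**Figure D5:**
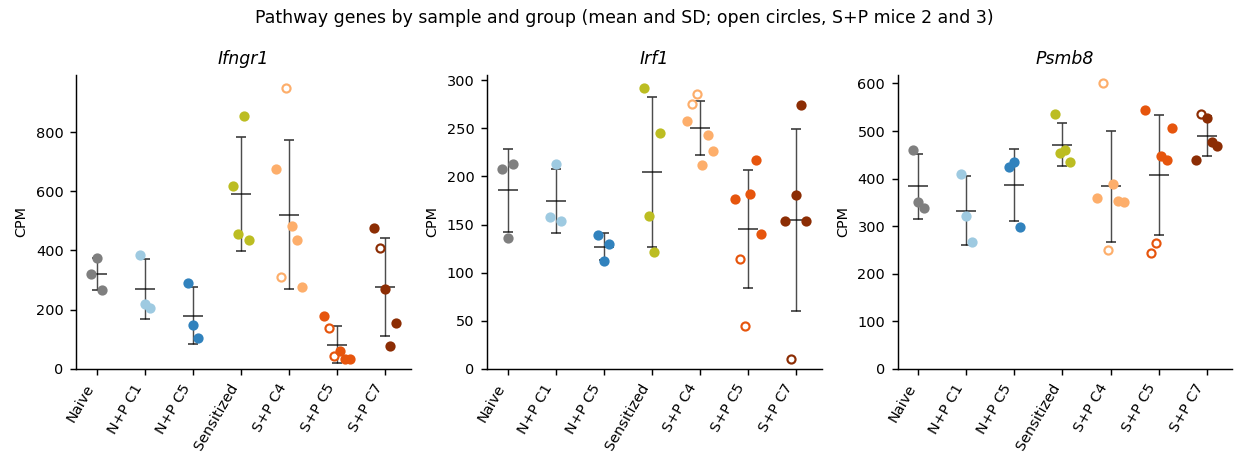
CPM (y axes from 0) of *Ifngr1*, *Irf1* and *Psmb8* by sample and group, with the mean and SD in black and open circles for S+P mice 2 and 3. All S+P C5 samples of *Ifngr1* (33.2 to 180 CPM) lie below all Sensitized (435 to 854 CPM) and S+P C4 samples (276 to 948 CPM).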

How the data were processed

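RNA-Seq of sorted TFGS was analysed in 30 samples of 7 groups. The table the authors deposited holds raw counts for each library, made with cutadapt 3.4, STAR 2.6.1b and featureCounts 2.0.1 on GRCm39 per the submitters' processing notes, with reads that mapped to several places removed. The strand setting is not given in the sources used here. The 56 libraries held 6636532 to 32625243 counts. Repeat libraries were added up within a mouse and subset, an identical library in 2 groups was left out of both, and a near-identical pair was averaged.

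CPM and fold changes came from edgeR 4.0.16 in R 4.3.3 (TMM, filterByExpr at a minimum of 10 counts, a robust quasi-likelihood model with 7 groups and no block, two-sided test, Benjamini-Hochberg over 19659 genes). A call needed an absolute log2 fold change above 0.9 at an adjusted p under 0.1. Exact permutation tests used mean log2(CPM + 1). Replicates were read as separate mice, although the paper gives fewer samples per group than the S+P subsets have replicate numbers. The study sorted in 2 experiments, which the labels do not assign to samples, so a batch could not be fitted.

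The subsets of 1 group of mice share replicate numbers and were taken as subsets of the same mouse. Deviations of same-numbered samples from their group means correlated at 0.0225 to 0.102 in N+P and at 0.0974 to 0.192 in S+P subsets. Alternatives were RLE normalization, no filter, DESeq2 1.42.0, only the groups compared, all 56 libraries, no samples under 9000 genes, no minimum fold change, a replicate block, each sample left out and, added after the data had been seen, no S+P mice 2 and 3.

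The 8 genes, the pathway lists and the markers were chosen with earlier results of these data known. All 8 genes are given in every group, with fold change, error and adjusted p where the unadjusted p is under 0.05 and for *Nlrc5*, *Erap1* and *H2-D1*, chosen after their values were seen. Pathway genes are named where called or, up to 3 per list, by smallest unadjusted p, and the most alike genes are the 3 with the highest Pearson correlation over samples. Levels of *H2-Q7*, *H2-T23*, *H2-T22*, *Psmb8*, *Psmb9*, *Psmb10* and *Irf1* were chosen after values were seen. The fits were tested on simulated data. Plots and tables used matplotlib 3.10.9, scipy 1.17.1, pandas 2.3.3 and numpy 2.4.6 under Python 3.11.15. Some genes of the lists are not reported here.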

Additional observations from a re-analysis of the deposited data

Results flagged for a closer look

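Of 32 sets of values (8 genes in the 4 groups of 4 to 6 samples), 8 held a sample set apart from its group by Dixon's 95% criterion, where chance flags about 1 in 20. 6 of the 8 came from S+P mice 2 and 3. *B2m* was at 15527 CPM in S+P C4 2 (others 3934 to 6431). *Tap1* was at 104 CPM in S+P C4 2 (others 239 to 309), at 3.97 CPM in S+P C7 3 (others 268 to 321) and at 161 CPM in Sensitized 2 (others 268 to 285). *Tap2* was at 126 CPM in S+P C7 3 (others 54.8 to 72.0). *Nlrc5* was at 579 CPM in S+P C5 3 (others 315 to 383), at 106 CPM in S+P C7 3 (others 348 to 399) and at 352 CPM in Sensitized 4 (others 236 to 255). S+P C4 2 and S+P C7 3 had 8002 and 7879 genes with a count and 1 library each, and S+P C7 3 held the globin and class II levels given above. The part of these features in the values was not tested.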

How the results depend on the processing

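None of the 8 genes was called in any of 1456 fits of a gene and comparison under an alternative, with a lowest adjusted p of 0.136. In each comparison 0 of the 8 genes were called under RLE normalization, no filter, DESeq2, only the groups compared and all 56 libraries. The same held with no samples under 9000 genes, no S+P mice 2 and 3, no minimum fold change and each sample left out. The replicate block also gave 0 in the 3 comparisons of subsets of the same mice. The sign of the fold change was less stable, and it changed under at least 1 alternative in 44 of 88 pairs of gene and comparison. *B2m* in S+P C5 against N+P C5 stayed above 0, with a log2 fold change of 0.45 to 0.98, lowest without S+P mice 2 and 3. With a single sample left out it ran from 0.66 (without S+P C5 2) to 0.98. No *B2m* block could be fitted there because the groups come from different mice. In the 250 bases before the start the same numbers of the 6 windows held each motif, while the shares of all windows fell to 0.311% (kappa-B type), 12.6% (IRF type), 17.9% (TGACG), 34.5% (ATTGG) and 0.0925% (spaced TGACG and ATTGG). Each value rested on at least 85 counts, and the part of depth, mouse number or technical spread in the lack of calls was not tested.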
